A study of Homo sapiens with 24 samples.

Results

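The transcription factors that mark the neuroendocrine state of prostate cancer cells were followed across 4 prostate cancer cell lines treated with the BET inhibitor I-BET762 (GSK525762A). The members were 9 listed genes, found through probe sets that the platform's annotation ties to a single gene symbol. Of these 9 genes, 8 had such a probe set (INSM1, FOXA2, NKX2-1, POU3F2, SOX2, ONECUT2, PROX1 and HES6), with 23 probe sets among the 54613 tested and 19775 genes named, and 1 listed gene was not analysed here. RNA from LNCaP, VCaP, PC3 and NCI-H660 cells was hybridised to 24 Affymetrix U133 Plus 2.0 arrays. Each line was treated for 24 hours with DMSO (vehicle), 0.5 µM or 10 µM I-BET762, with 2 biological replicates in each of the 12 groups. All 4 are human cancer cell lines, each grown as a single established line, so a difference between lines is a difference between these cultures. Values are MAS5 signals, a linear intensity scaled by the authors to a target of 500 on every array.

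NCI-H660 is a line of small cell, neuroendocrine prostate carcinoma, whereas LNCaP and VCaP are luminal lines that make prostate-specific kallikreins and PC3 lacks that luminal programme. In neuroendocrine differentiation, a set of developmental transcription factors replaces the luminal programme and switches on secretory granule and neuronal genes. INSM1 is a zinc-finger repressor of endocrine and neuronal development, FOXA2 a forkhead pioneer factor of endoderm, NKX2-1 a homeodomain factor of lung, thyroid and forebrain, POU3F2 (BRN2) a neural POU-domain factor, SOX2 a factor of stem and neural progenitor cells, PROX1 and ONECUT2 homeodomain factors of developing neural and endodermal tissue, and HES6 a relative of the Notch targets HES1 and HES5 that opposes HES1. I-BET762 blocks the bromodomains by which BET proteins bind acetylated histones.

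The arrays matched the neuroendocrine label of NCI-H660. All 11 neuroendocrine markers with a probe set reached a mean signal of 100 in vehicle-treated NCI-H660, the floor used here for detection, against 7 for the arrays labelled LNCaP, 4 for those labelled VCaP and 2 for PC3. The luminal markers KLK2, KLK3, TMPRSS2 and HOXB13 lay under that floor in NCI-H660. The other luminal markers measured, the keratins KRT8 and KRT18, did not, with means of 7297 and 14074 there. Of the 6 luminal markers, 4 were called lower in NCI-H660 than in the mean of the other lines. KRT8 was 1.81-fold higher and KRT18 differed by -0.13 on the log2 scale (limma adjusted p = 2.07e-05 and 0.501). Against PC3 alone 1 of the 6, HOXB13, was called lower. KLK2, KLK3 and TMPRSS2 averaged 77.5, 29.5 and 47.7 in vehicle PC3, under the floor there too. KRT8 and KRT18 differed from PC3 by -0.17 and -0.54 on the log2 scale and were not called. The labels of LNCaP and VCaP did not match their defining genes. ERG, which VCaP makes from a gene fusion, had vehicle signals of 6884 and 7084 under the LNCaP label and of 16 and 20 under the VCaP label. ETV1, which is rearranged in LNCaP, read 32 and 53 under the LNCaP label and 408 and 343 under the VCaP label. These arrays are therefore called "labelled LNCaP" and "labelled VCaP", and comparisons of NCI-H660 with the other lines are also given against PC3 alone. Replicates correlated at 0.934 to 0.953 over all probe sets (log2 signal), and 44.4% to 50.1% of probe sets per array reached a signal of 100.

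The annotation held the sequence before the transcription start of 5 of the 8 genes (RefSeq, GRCh38.p14). The 250 bases before the start of SOX2, POU3F2 and HES6 are shown because these genes stand for the response patterns seen: lower in treated NCI-H660, little moved, and higher in treated cells of another line. Each is read 5′ to 3′ on the strand of its gene, and capitals mark matches, on either strand, to the CCAAT box, the E-boxes CAGCTG and CACGTG, the N-box CACNAG, ATGCAAAT (the octamer read by POU-domain factors) and TATAAA.
SOX2 (chr3:181711675-181711924, plus strand): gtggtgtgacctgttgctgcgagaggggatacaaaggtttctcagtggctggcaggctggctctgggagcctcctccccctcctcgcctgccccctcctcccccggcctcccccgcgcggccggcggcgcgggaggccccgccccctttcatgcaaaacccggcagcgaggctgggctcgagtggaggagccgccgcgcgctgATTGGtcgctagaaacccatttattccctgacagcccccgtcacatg
POU3F2 (chr6:98834324-98834573, plus strand): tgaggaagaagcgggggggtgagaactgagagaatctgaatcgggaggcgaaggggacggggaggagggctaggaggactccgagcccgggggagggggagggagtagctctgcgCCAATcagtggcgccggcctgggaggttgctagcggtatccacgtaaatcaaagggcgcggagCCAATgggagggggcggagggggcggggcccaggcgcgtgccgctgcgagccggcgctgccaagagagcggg
HES6 (chr2:238240039-238240288, minus strand): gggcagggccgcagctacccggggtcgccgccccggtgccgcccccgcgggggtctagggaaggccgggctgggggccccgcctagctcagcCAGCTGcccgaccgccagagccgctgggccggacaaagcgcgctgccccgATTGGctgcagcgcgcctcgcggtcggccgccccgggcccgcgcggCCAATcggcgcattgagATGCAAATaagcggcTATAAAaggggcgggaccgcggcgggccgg
The SOX2 stretch held 1 CCAAT match and that of POU3F2 held 2. The HES6 stretch held 2 CCAAT matches, 1 CAGCTG, 1 octamer and 1 TATAAA, none overlapping another. Over 35116 promoter windows of the same length, CCAAT was found in 32% of them and CACNAG also in 32%. CAGCTG was found in 14.0%, TATAAA in 10.7%, CACGTG in 6.34% and the octamer in 1.63%. These letters were chosen after the sequences had been read and describe the windows only.

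In vehicle-treated cells, 5 of the 8 genes were above the floor in NCI-H660 alone, by the probe set standing for each gene (the one of highest mean log2 signal). NKX2-1 had vehicle signals of 7320 and 7240 in NCI-H660 and did not exceed 82.6 on any of the 18 arrays of the other lines. POU3F2 read 3086 and 3058 in NCI-H660 and at most 65.7 elsewhere. SOX2 read 1913 and 1856 in NCI-H660 against a highest value of 89.5 in the other lines. By these probe sets the 3 genes were bright in the neuroendocrine line and under the floor on the arrays of the other lines, at every dose. Among their further probe sets, that of NKX2-1 read 145 on 1 array labelled LNCaP at 0.5 µM. A further SOX2 probe set read 104 on 1 PC3 vehicle array and 101 on 1 PC3 array at 10 µM, but averaged 71.6 in vehicle NCI-H660. In bulk RNA of a culture, fewer cells with a gene and less of its RNA per cell cannot be told apart. FOXA2 read 856 and 929 in vehicle NCI-H660 and at most 82.5 elsewhere, that maximum being a single PC3 array at 0.5 µM whose replicate read 6. PROX1 read 530 and 782, with a highest value of 85.8 in the other lines. Because the other groups lay under the floor, only lower bounds of the ratio can be given. Against a floor of 100, NKX2-1 was at least 72.8-fold higher in NCI-H660, POU3F2 at least 30.7-fold, SOX2 at least 18.8-fold, FOXA2 at least 8.92-fold and PROX1 at least 6.56-fold.

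INSM1, ONECUT2 and HES6 were also detected outside NCI-H660. INSM1 read 7256 and 8165 in vehicle NCI-H660, 403 and 396 in the labelled LNCaP group, 6 and 32 in the labelled VCaP group and 3 and 2 in PC3. Its NCI-H660 signal was 19.3-fold that of the arrays labelled LNCaP (log2 difference 4.27, SE 1.04, limma adjusted p = 0.0044) and at least 77.1-fold higher than under the floor in labelled VCaP and PC3. INSM1 was thus detected in a second line, at a far lower signal than in NCI-H660.

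ONECUT2 was detected in all 4 lines, with vehicle signals of 653 and 741 in NCI-H660, 412 and 558 in the labelled LNCaP group, 238 and 233 in the labelled VCaP group and 100 and 150 in PC3. The vehicle groups did not overlap, but NCI-H660 exceeded the arrays labelled LNCaP by only 1.45-fold (log2 0.54, SE 0.20, adjusted p = 0.0461), under the 2-fold minimum for a call. It exceeded PC3 by 5.68-fold (adjusted p = 2.26e-07).

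HES6 was not restricted to NCI-H660. Its vehicle signals were 4304 and 4256 in NCI-H660, 4846 and 4752 on the arrays labelled VCaP, 278 and 297 on those labelled LNCaP and 92 and 215 in PC3. NCI-H660 and the arrays labelled VCaP differed by -0.16 on the log2 scale (95% interval -0.75 to 0.42, adjusted p = 0.701), whereas NCI-H660 was 14.9-fold above the arrays labelled LNCaP and 30.5-fold above PC3. The order of lines for HES6 was therefore labelled VCaP and NCI-H660 together, then labelled LNCaP, then PC3.

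**Figure D1:**
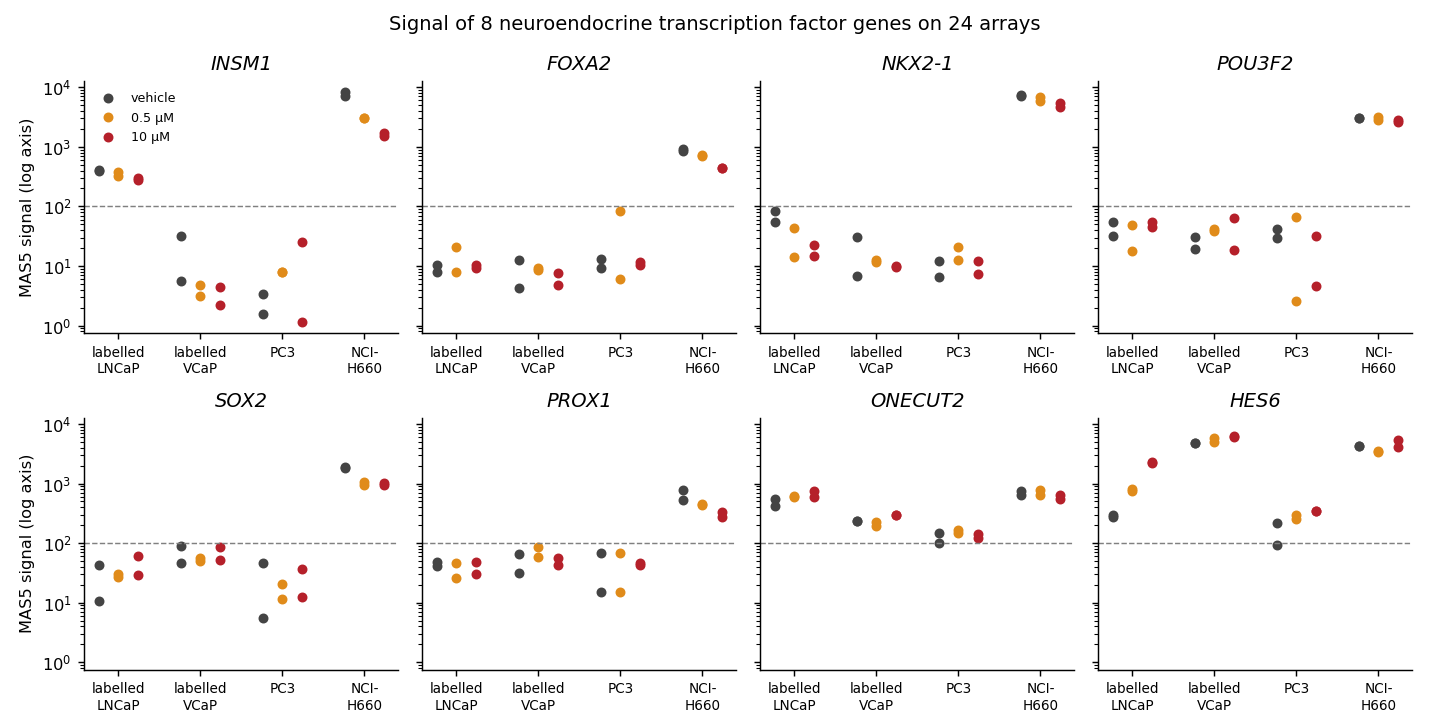
MAS5 signal (vertical, log axis) of the probe set standing for each of the 8 genes on all 24 arrays, by line (horizontal), with 1 point per array coloured by dose; the dashed line is the floor of 100. INSM1, FOXA2, NKX2-1, POU3F2, SOX2 and PROX1 are high in NCI-H660, INSM1 is also above the floor on the arrays labelled LNCaP, and ONECUT2 and HES6 are detected in every line.

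Tested against the mean of the other 3 vehicle groups in limma (12 groups, all 24 arrays), all 8 genes were called higher in NCI-H660, at a Benjamini-Hochberg adjusted p under 0.1 over all probe sets, a fold over 2 and a mean signal of 100 or more in either group. Over all 54613 probe sets, 14.5% were called higher in this contrast. Line by line, 7 of the 8 genes were called against the arrays labelled LNCaP (14.6% of all probe sets higher), all but ONECUT2. Against those labelled VCaP 7 were called (14.3%), all but HES6, and against PC3 all 8 (13.8%). The 8 genes were listed as markers of this state, so their line pattern is a description of known markers and not independent evidence.

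In NCI-H660 treated with 10 µM I-BET762 both arrays lay under both vehicle arrays for 7 of the 8 genes. None of these differences was called in the limma fit over all arrays, and 3 were in the fit of the NCI-H660 arrays alone. INSM1 read 7256 and 8165 in vehicle, 3021 and 3032 at 0.5 µM and 1491 and 1715 at 10 µM. The dose groups did not overlap, and the signal was 2.54-fold lower at 0.5 µM and 4.81-fold lower at 10 µM. PROX1 read 530 and 782 in vehicle, 440 and 446 at 0.5 µM and 327 and 270 at 10 µM, which was 2.17-fold lower at 10 µM. FOXA2 read 856 and 929, then 702 and 726, then 435 and 446, and was 2.02-fold lower at 10 µM. In each of these 3 genes the signal at 0.5 µM lay between those of vehicle and 10 µM.

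SOX2 had a different dose pattern. It read 1913 and 1856 in vehicle, 955 and 1052 at 0.5 µM and 1039 and 960 at 10 µM, so both doses lay 1.88-fold and 1.89-fold under vehicle and overlapped each other. NKX2-1 read 7320 and 7240 in vehicle, 6796 and 5915 at 0.5 µM and 4714 and 5370 at 10 µM, or 1.45-fold lower at the higher dose.

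POU3F2, ONECUT2 and HES6 differed least from vehicle at 10 µM. POU3F2 read 3086 and 3058 in vehicle, 2778 and 3134 at 0.5 µM and 2649 and 2788 at 10 µM. ONECUT2 read 653 and 741, then 771 and 652, then 638 and 551. HES6 read 4304 and 4256, then 3464 and 3430, then 5361 and 4037, with vehicle and 10 µM overlapping. The gene whose 10 µM arrays did not both lie under vehicle was HES6. Arrays so ordered were seen for 41.1% of the 27054 probe sets that reached 100 in vehicle NCI-H660. At 0.5 µM it held for 6 of the 8 genes, against 30.9% of those probe sets.

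By the pooled test none of these changes was called. In limma over all 24 arrays, 0 of the 8 genes passed at 0.5 µM (0.386% of all probe sets were called lower and 0.258% higher), 0 at 10 µM (2.85% lower, 1.47% higher) and 0 between 10 and 0.5 µM (0.392% lower). At an unadjusted p under 0.05 none passed at 0.5 µM or between the doses, and 1 gene passed at 10 µM, INSM1, with a log2 change of -2.27 (SE 1.04, adjusted p = 0.2). At 10 µM the adjusted p was 0.369 for PROX1 (log2 change -1.12, SE 0.69), 0.544 for FOXA2 (-1.02, SE 0.86) and 0.594 for SOX2 (-0.92, SE 0.86). The spread in this fit comes from every line. For INSM1 the replicate arrays differed by up to 4.45 on the log2 scale in groups under the floor, but by at most 0.20 within NCI-H660.

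The 6 NCI-H660 arrays were also fitted alone, which leaves 3 residual degrees of freedom. There, 3 of the 8 genes were called lower at 10 µM, against 3.51% of all probe sets called lower and 1.54% higher. INSM1 fell by 2.27 on the log2 scale (SE 0.14, adjusted p = 0.0276), FOXA2 fell by 1.02 (SE 0.12, adjusted p = 0.0352) and PROX1 fell by 1.12 (SE 0.24, adjusted p = 0.081). SOX2 passed the p threshold but not the 2-fold minimum (log2 change -0.92, SE 0.13, adjusted p = 0.043). The log2 change of NKX2-1 was -0.53 (SE 0.15, adjusted p = 0.118). The adjusted p was 0.462 for POU3F2, 0.463 for ONECUT2 and 0.725 for HES6. At 0.5 µM and between the doses this fit called 0 probe sets of any gene, although 7575 and 7687 had an unadjusted p under 0.05. INSM1 at 0.5 µM had a log2 change of -1.35 (SE 0.14, unadjusted p = 0.000575, adjusted p = 0.165).

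**Figure D2:**
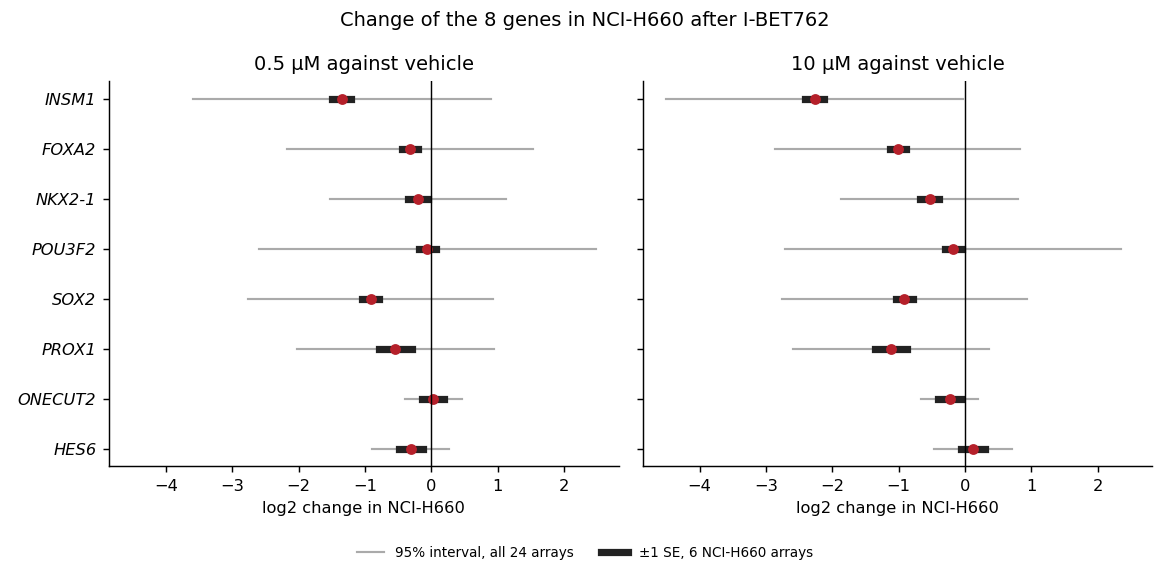
Log2 change (horizontal) of the 8 genes in NCI-H660 at 0.5 µM (left) and 10 µM (right) against vehicle, with grey lines for the 95% interval of the fit over all 24 arrays and black bars for ±1 SE of the fit over the 6 NCI-H660 arrays. INSM1 lies farthest from 0 at both doses. The black bars and grey lines are unlike measures, so their lengths cannot be compared directly.

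The median log2 change over the 8 genes was -0.32 at 0.5 µM and -0.72 at 10 µM, beside 0.00 and -0.02 over all genes detected in NCI-H660. Centring each array on its median signal moves every 10 µM change in this line up by 0.18. On that scale the changes were -2.09 for INSM1, -0.94 for PROX1, -0.84 for FOXA2, -0.74 for SOX2 and 0.00 for POU3F2. By the probe set standing for each gene, FOXA2 and PROX1 thus no longer reached 2-fold. The further probe sets of PROX1, given below, fell by more, to means under the floor.

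Most genes had further probe sets, which are other stretches of the same transcripts. Of the 23 probe sets, 19 reached 100 in vehicle NCI-H660, and in 17 of these both 10 µM arrays lay under both vehicle arrays. The exceptions were POU3F2 probe set 207084_at, with means of 773 in vehicle and 828 at 10 µM, and the single probe set of HES6. Arrays were so ordered for 41.1% of all 27054 probe sets that reached 100 in vehicle NCI-H660. The 19 are repeated readings of only 8 genes. In the fit over all arrays, 2 further probe sets were called lower at 10 µM, beside 2.85% of all probe sets. SOX2 probe set 213722_at went from 721 in vehicle to 369 at 0.5 µM and 229 at 10 µM, and fell by 1.64 on the log2 scale at the higher dose (SE 0.33, adjusted p = 0.00435). PROX1 probe set 242119_at went from 262 to 109 and 67.1, and was at least 2.62-fold lower at 10 µM (adjusted p = 0.0374). Probe sets of SOX2 thus differed in dose pattern, since 228038_at and 213721_at were 1.67-fold and 1.89-fold lower at 10 µM and changed little between the doses. The second probe set of INSM1, 231558_at, was dim, with means of 138, 91.3 and 26.4. FOXA2 probe set 40284_at was brighter in NCI-H660 than 210103_s_at, the one standing for the gene. It averaged 1454 in vehicle, 1197 at 0.5 µM and 822 at 10 µM, less than 2-fold lower. The 2-fold fall of FOXA2 and its call in the fit of the NCI-H660 arrays alone thus rest on 210103_s_at. PROX1 probe set 229376_at averaged 389 in vehicle and 73.4 at 10 µM, and 207401_at averaged 228 and 84.1. Neither was called in the fit over all arrays. The 3 detected probe sets of ONECUT2 ranged from 1.09-fold to 1.21-fold lower.

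**Figure D3:**
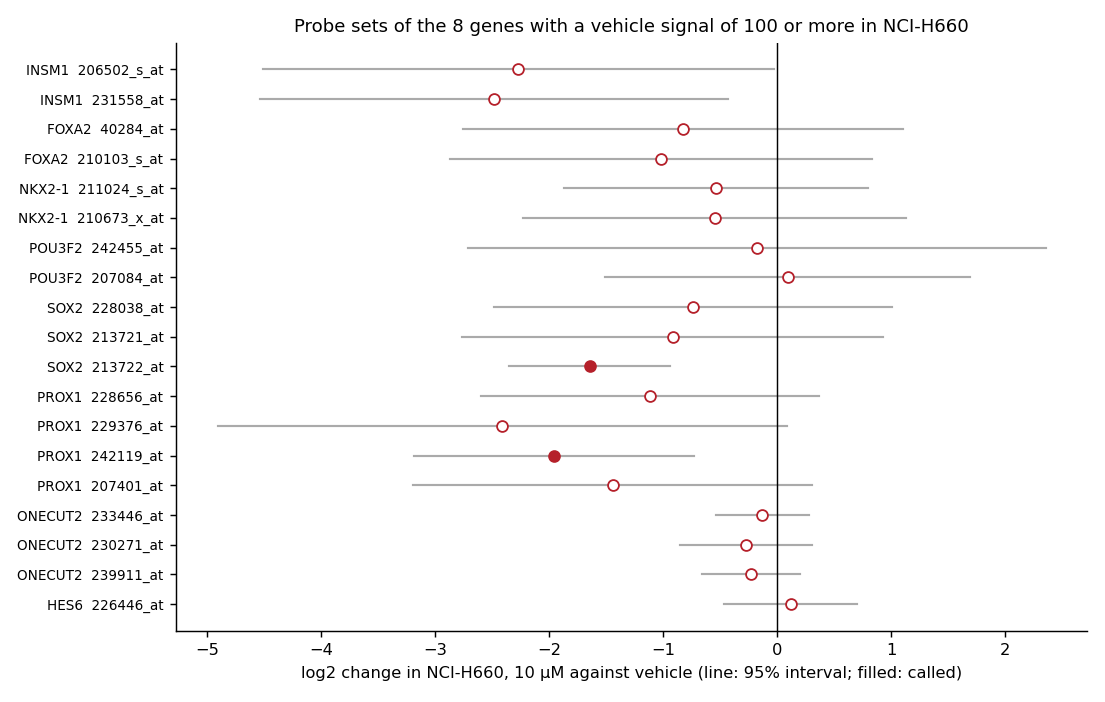
Log2 change at 10 µM against vehicle in NCI-H660 (horizontal) of the 19 probe sets of the 8 genes with a vehicle signal of 100 or more, with 95% intervals of the fit over all arrays; filled points were called. Probe sets of INSM1 and PROX1 lie lowest, those of ONECUT2, POU3F2 and HES6 lie near 0, and 1 probe set each of SOX2 and PROX1 was called.

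Outside NCI-H660, HES6 was the only gene with a called change among those that reached the floor. On the arrays labelled LNCaP it read 278 and 297 in vehicle, 744 and 795 at 0.5 µM and 2308 and 2250 at 10 µM. The groups did not overlap, and HES6 rose 2.68-fold at 0.5 µM (log2 1.42, SE 0.27, limma adjusted p = 0.00343) and 7.93-fold at 10 µM (log2 2.99, SE 0.27, adjusted p = 2.72e-06). It was also 2.96-fold higher at 10 µM than at 0.5 µM (adjusted p = 0.00369). In PC3 HES6 read 92 and 215 in vehicle, 258 and 299 at 0.5 µM and 352 and 348 at 10 µM. The rise in PC3 was called at 10 µM (log2 1.32, SE 0.27, adjusted p = 0.00636) and stood at 1.98-fold, just short of 2-fold, at 0.5 µM (adjusted p = 0.0705). The vehicle replicates of PC3 were the widest apart of any HES6 pair, by 1.23 on the log2 scale. Without PC3 vehicle replicate 1 the log2 change at 10 µM was 0.71 (adjusted p = 0.0238), under the 2-fold minimum, so the call in PC3 was lost. Without PC3 vehicle replicate 2 it was 1.93 at 10 µM and 1.60 at 0.5 µM, and both were called (adjusted p = 4.42e-05 and 0.000439). In a fit of the 6 PC3 arrays alone, the 10 µM change of 1.32 had an adjusted p of 0.278. On the arrays labelled VCaP the signals were 4846 and 4752, then 5709 and 5001, then 6005 and 6208, with log2 changes of 0.16 and 0.35 (adjusted p = 0.847 and 0.488).

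**Figure D4:**
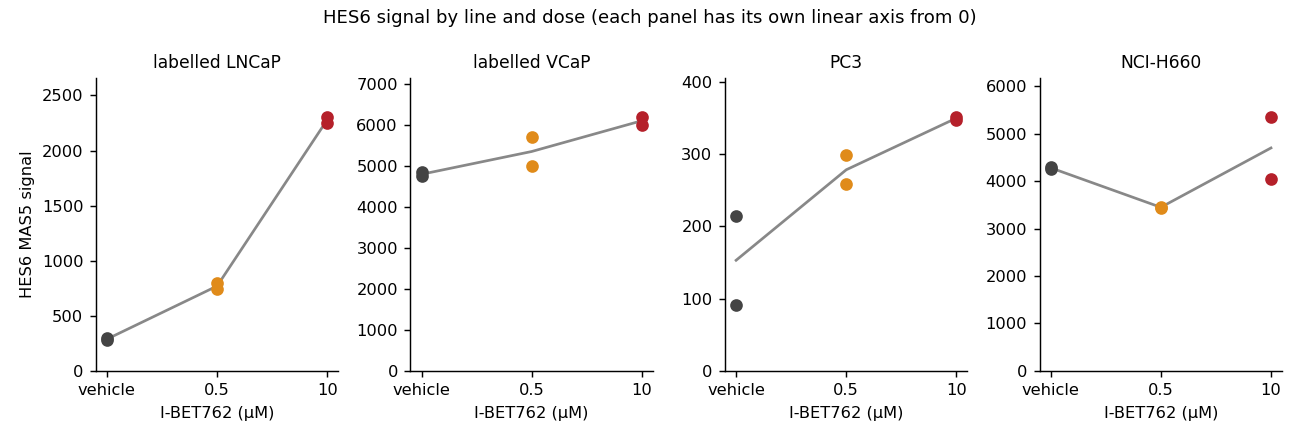
HES6 MAS5 signal (vertical, a linear axis from 0 in each panel) in vehicle and at 0.5 and 10 µM I-BET762 for each line, with 1 point per array and a line through the group means. The arrays labelled LNCaP go from 278 and 297 to 2308 and 2250, PC3 goes from 92 and 215 to 352 and 348, and the vehicle arrays labelled VCaP and of NCI-H660 lie between 4256 and 4846.

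The change of HES6 differed between NCI-H660 and the arrays labelled LNCaP when the difference itself was tested. It was -1.73 at 0.5 µM (SE 0.38, adjusted p = 0.023) and -2.87 at 10 µM (SE 0.38, adjusted p = 0.000252). Against PC3 the difference at 10 µM was -1.20 (adjusted p = 0.118) and against the arrays labelled VCaP -0.23 (adjusted p = 0.802). Of the 24 gene and line pairs tested in this way at 10 µM, that of HES6 and labelled LNCaP was the only pair called. Over all probe sets, 18.8% were called at 10 µM for labelled LNCaP, 14.1% for labelled VCaP and 5.82% for PC3. For the 5 genes under the floor elsewhere this test sets a change in NCI-H660 against values near background.

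In the 3 other lines together, 3 of the 48 gene and contrast pairs were called, and all were the HES6 rises above. A call needs a group mean of 100, which 3 of the 8 genes reached for labelled LNCaP and 2 each for labelled VCaP and PC3. The remaining pairs lay under 100 in both groups and so were not called. For them a rise to a mean of 100 or more could have been called, but a fall could not. Over all probe sets, 2.13% were called higher at 0.5 µM and 5.89% at 10 µM for labelled LNCaP, 2.44% and 6.1% in either direction for labelled VCaP, and 0.981% and 3.38% for PC3. INSM1 on the arrays labelled LNCaP read 403 and 396 in vehicle, 374 and 320 at 0.5 µM and 280 and 298 at 10 µM. At 10 µM it was 1.38-fold lower, with the groups not overlapping and a limma adjusted p of 0.83. That p uses the spread pooled over all lines, which for INSM1 includes groups under the floor. ONECUT2 there read 412 and 558 in vehicle and 605 and 743 at 10 µM (log2 0.48, adjusted p = 0.104). By the probe set standing for each gene, none of FOXA2, NKX2-1, POU3F2, SOX2 or PROX1 reached 100 at any dose in these lines.

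Related factors and pathways were read from 4 lists holding 83 named genes. In NCI-H660, 7 of the 83 were called at 10 µM, 5 lower and 2 higher, and 1, lower, at 0.5 µM. Over all 19775 genes, the calls at 10 µM were 3.68% downward and 2% upward, and those at 0.5 µM 0.576% downward and 0.344% upward. In vehicle cells 15% of all genes were called higher in NCI-H660 than in the mean of the other lines and 12% lower, and 14.7% and 13.6% against PC3. Of 30 other neural transcription factors, 3 were called lower and none higher at 10 µM. NEUROG3, a basic helix-loop-helix factor that starts endocrine differentiation, read 1280 and 1456 in vehicle, 658 and 677 at 0.5 µM and 196 and 214 at 10 µM. It was at most 53 in the other lines, and it fell by 2.74 on the log2 scale at 10 µM (SE 0.73, adjusted p = 0.0248). MYT1, a zinc-finger factor of neural progenitors, went from 320 and 248 to 143 and 136 at 0.5 µM and 131 and 122 at 10 µM, and was called at both doses (adjusted p = 0.0743 and 0.0102). MYT1 averaged 206 in vehicle and 107 at 10 µM under the VCaP label, and 157 and 81.7 in PC3. Under the LNCaP label it averaged 180 and 205. LHX2, a LIM-homeodomain factor, went from 487 and 622 to 292 and 241 at 10 µM (2.07-fold lower, adjusted p = 0.0386). Its mean was also lower at 10 µM than in vehicle under the VCaP label (609 and 197 in vehicle and at 10 µM). The same order was seen under the LNCaP label (210 and 103) and in PC3 (159 and 135). SOX4, ZIC2 and MYCL, with mean vehicle signals of 16571, 4198 and 1299, had log2 changes of 0.02, -0.55 and -0.42 at 10 µM and were not called. The median over the 12 detected factors was -0.20.

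Of 13 paralogues of the listed genes, limma called none at either dose, and 3 were detected. At an unadjusted p under 0.05, 0 passed at 0.5 µM and 2 at 10 µM, both of them under the floor. HES1, the Notch target, FOXA1, the luminal relative of FOXA2, and INSM2 had mean vehicle signals of 3432, 1046 and 226 and log2 changes at 10 µM of -0.22, -0.13 and -0.12. FOXA1 was 2.05-fold lower in vehicle NCI-H660 than in the mean of the other lines (adjusted p = 6.75e-06), and HES1 was 3.58-fold higher (adjusted p = 1.28e-08). Against PC3 alone neither was called, since FOXA1 averaged 1046 in NCI-H660 and 901 in PC3 and HES1 3432 and 2832 (log2 differences 0.22 and 0.28, adjusted p = 0.285 and 0.133).

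Of 27 Notch pathway genes, 2 were called higher and 2 lower at 10 µM. JAG1, a Notch ligand, read 542 and 716 in vehicle, 1106 and 917 at 0.5 µM and 1489 and 1498 at 10 µM, and rose 2.40-fold (adjusted p = 0.000124). DLL4, another ligand, lay under the floor in vehicle (21 and 23) and read 127 and 109 at 10 µM, at least 1.18-fold higher (adjusted p = 0.0734). MAML3, a coactivator of Notch-driven transcription, went from 1086 and 1079 to 329 and 420 (2.91-fold lower, adjusted p = 0.0023). RFNG, a glycosyltransferase acting on Notch receptors, went from 555 and 639 to 269 and 211 (2.50-fold lower, adjusted p = 0.000359). In each other line too, the means of MAML3 and RFNG were lower at 10 µM than in vehicle and that of JAG1 higher. MAML3 went from a mean of 921 to 257 under the VCaP label, and RFNG from 811 to 429 under the LNCaP label. In vehicle cells 7 of the 27 were higher in NCI-H660 than in the mean of the other lines and 4 lower, and against PC3 alone 9 were higher and 4 lower. The ligand DLL1 read 4315 and 3971 in NCI-H660 and at most 141 in the other vehicle groups, while JAG1 was 6.22-fold lower there, and 7.37-fold lower than in PC3 (adjusted p = 5.45e-09). DLL1 had a log2 change of -1.12 at 10 µM (SE 0.52, adjusted p = 0.208). RBPJ, the DNA-binding partner of activated Notch, ADAM10, a Notch-cleaving protease, and the ligand JAG2 had mean vehicle signals of 6457, 4877 and 3003 in NCI-H660 and log2 changes at 10 µM of -0.43, -0.15 and -0.34, none called.

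Of 13 genes of the REST repressor complex and its partners, limma called none at either dose. At an unadjusted p under 0.05, 0 passed at 0.5 µM and 3 at 10 µM (RCOR2, EHMT2 and GFI1, all lower). The share of all genes with such a p in this fit was not counted, so these unadjusted counts have no general rate beside them. The same holds for those of the paralogues and of the listed genes. In vehicle NCI-H660, 5 of the 13 were called higher than in the mean of the other lines and 1, REST, lower. Against PC3 alone 4 were called higher and 1 lower, again REST. Against the arrays labelled LNCaP 3 were called higher and 0 lower, and REST averaged 178 in NCI-H660 and 265 there. REST, which silences neuronal genes in other cells, was 2.47-fold lower than in the mean of the other lines (204 and 151 in NCI-H660, adjusted p = 6.86e-05). It was 2.97-fold lower than in PC3 (adjusted p = 9.27e-05). At 10 µM its log2 change was 0.51 (adjusted p = 0.206). HDAC2, HDAC1, RCOR3 and KDM1A, the brightest of the list in vehicle NCI-H660, read 8242, 6810, 2687 and 2370 on average. Of the 11 neuroendocrine markers, 1 was called at 10 µM, and the median log2 change of the 11 was -0.27. This was DDC, the aromatic amino acid decarboxylase, at 4728 in vehicle and 1349 at 10 µM (3.51-fold lower, adjusted p = 0.016). CHGA, a granule protein, had a log2 change of -0.55 (adjusted p = 0.729). The peptide hormone gene GRP averaged 614 in vehicle and 159 at 10 µM (log2 change -1.96, SE 0.82, adjusted p = 0.152). In the other direction UCHL1, a ubiquitin hydrolase of neurons, averaged 11907 and 16481 (log2 change 0.47, adjusted p = 0.551), SYP, a vesicle protein, 194 and 252 (0.40, adjusted p = 0.791) and SCG3, a granule protein, 2036 and 2164 (0.09, adjusted p = 0.973).

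**Figure D5:**
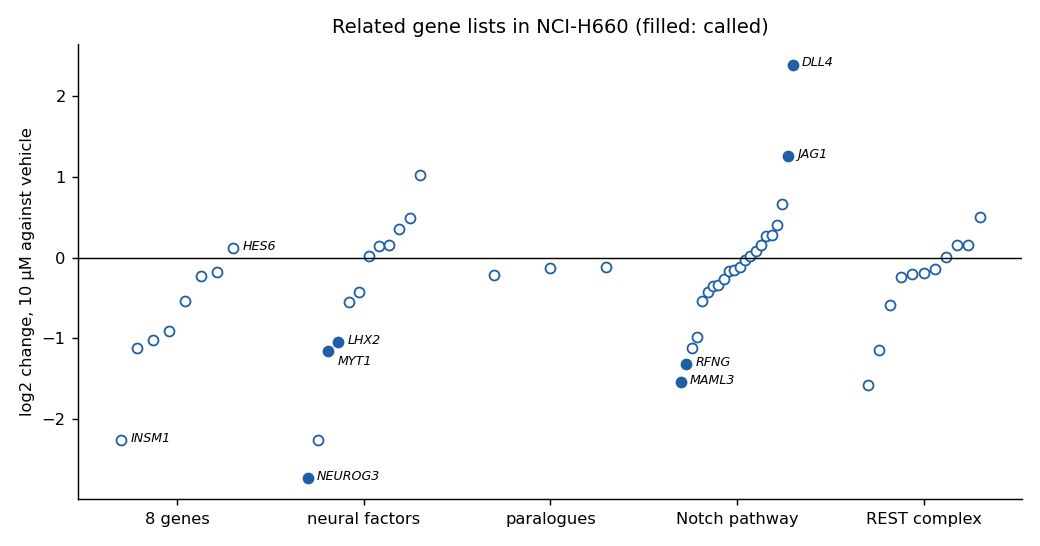
Log2 change at 10 µM against vehicle in NCI-H660 (vertical) of the 8 genes and of the detected genes of 4 related lists (horizontal), with 1 point per gene ordered within its list; filled points were called. NEUROG3, MYT1, LHX2, MAML3 and RFNG were called lower and JAG1 and DLL4 higher, DLL4 from a vehicle signal under the floor.

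The genes most like each member were named by Pearson's r of log2 signal over the 24 arrays, with signals under 100 set to 100. For FOXA2 they were DPY19L2P2, TOX and BEND5, for NKX2-1 COL21A1, TRIM9 and EDIL3, for POU3F2 SFTA3, KIT and ZNF711, for SOX2 NELL1, LCAL1 and SDR16C5, and for PROX1 LIN28B, INHBE and FBN3. The lowest r of these 15 was 0.996 after rounding. Such values reflect a signal near the floor in 18 arrays and a high one in the 6 arrays of NCI-H660. For INSM1 the nearest were MARCHF11, RASAL1 and STK32A (r of 0.989, 0.989 and 0.986). ONECUT2 and HES6 had lower best values, of 0.977 with AZI2 and 0.975 with PIAS2. Arrays of 1 line share their cells, so these values describe the arrays and carry no test.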

How the data were processed

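RNA of 4 cell lines was measured on 24 arrays, in 12 groups of 2 biological replicates. The deposited values are MAS5 signal intensities on a linear scale, scaled by the authors to a target of 500; the submitters' processing notes name MAS5, and the genome build is not given in the sources used here. Of 54675 probe sets, 62 controls were left out. The annotation gave 41091 probe sets 1 symbol, 1801 several and 11721 none. Where a gene had several probe sets, that of highest mean log2 signal stood for it, leaving out _x_at probe sets where another existed. Log2 signals were fitted in limma 3.58.1 (R 4.3.3) as 12 group means without a block (12 residual degrees of freedom, prior 1.29), after the code was tested on simulated data. Benjamini-Hochberg adjustment ran over the 54613 probe sets of each contrast. To be called, a probe set needed an adjusted p under 0.1, a change of over 2-fold and a group mean of 100 or more on one side; differences between lines needed the p alone. A ratio against a group under 100 is given as a bound against 100.

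The members, lists and tests were chosen with earlier results of these data known. Genes were named by rule: all members, from each list up to 4 called genes with the largest change and up to 4 brightest in vehicle NCI-H660, and the 3 genes most like each member. REST, RCOR2, EHMT2, GFI1, the marker genes and the label genes were added after values were seen. Same-numbered replicates of a line deviated with correlations of -0.08 to 0.09, so numbers did not pair the arrays. Alternatives changed the floor, scaling, pseudocount, variance trend, arrays fitted, probe set choice, thresholds, block and each array left out. Depth does not apply to arrays; 2 per group limit the precision. Present and absent calls were not used here, and 1 listed gene is not reported here.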

Additional observations from a re-analysis of the deposited data

Results flagged for a closer look

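The change of HES6 in NCI-H660 differed from that on the arrays labelled LNCaP by the test of the difference itself, by -1.73 on the log2 scale at 0.5 µM (adjusted p = 0.023) and by -2.87 at 10 µM (adjusted p = 0.000252). HES6 started at a mean of 287 on the arrays labelled LNCaP and at a mean of 4280 in NCI-H660, and reached 2279 and 4699 at 10 µM. The ERG and ETV1 signals of the arrays labelled LNCaP go against that label.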

How the results depend on the processing

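All 8 genes were called higher in vehicle NCI-H660 under every alternative run, and HES6 on the arrays labelled LNCaP was called at both doses under each that could be fitted. The count of genes called in NCI-H660 at 10 µM, 0 in the pooled fit, was 3 with the NCI-H660 arrays alone (INSM1, FOXA2, PROX1), 2 with a pseudocount of 32, 2 with the mean over a gene's probe sets (INSM1 and PROX1 in both) and 3 with signals floored at 100, a setting added after seeing the data that gives dim arrays 1 shared value and so understates their spread. Leaving out 1 array gave 0 to 1, the 1 being INSM1 (adjusted p = 0.0265) without PC3 10 µM replicate 1 or without PC3 10 µM replicate 2. At 0.5 µM the count was 1 (INSM1) with the pseudocount and 1 with the floored signals. Of all probe sets, 3.11% were called lower and 1.31% higher at 10 µM with the pseudocount, and 2.87% and 1.33% with the floored signals. At 0.5 µM these shares were 0.606% and 0.216% with the pseudocount, and 0.661% and 0.225% with the floored signals. The pathway count of 7 became 12 without the fold minimum, 12 with the arrays compared alone, 3 with the mean over probe sets and 4 to 8 with 1 array left out, the 4 without NCI-H660 vehicle replicate 2. The count of 3 calls in other lines was 1 in the fit of PC3 and NCI-H660 alone, which holds 1 other line, and 2 to 4 with 1 array left out. The 2 came without PC3 vehicle replicate 1, which lost HES6 in PC3 at 10 µM, and the 4 without PC3 vehicle replicate 2, which added HES6 in PC3 at 0.5 µM. The count of differences between lines, 1 in the pooled fit, was 2 after quantile normalization, 7 with the pseudocount, 3 with an intensity trend, 2 with the arrays compared, 0 with PC3 and NCI-H660 only, 4 with the mean over probe sets, 21 with the floored signals and 1 to 3 with 1 array left out (2 without labelled LNCaP vehicle replicate 2, without PC3 vehicle replicate 1 or without PC3 10 µM replicate 2, and 3 without PC3 vehicle replicate 2). With the pseudocount, 13.6% of all probe sets had a negative and 9.25% a positive called difference against labelled LNCaP. These shares were 10.5% and 7.49% against labelled VCaP, and 5.53% and 3.91% against PC3. With the floored signals they were 14.7% and 11%, 12.5% and 9.51%, and 8.91% and 7.06%, in the same order. Shares for these differences under the other alternatives were not counted. With the replicate number as a block the counts were 8 higher in vehicle, 0 at 10 µM and 7 in the pathway lists, so the block changed no call count. No result reversed among those called. Signals under 100 in 9 of the 12 groups of 5 genes, by the probe set standing for each, limit what the pooled spread can resolve; the cause of the differing counts was otherwise not tested.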
